A study of Glycine max with 4 samples.

Results

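Wide peaks of open chromatin were examined in soybean embryos (Glycine max, cultivar Williams 82). The members were chosen by their width alone: a peak counted as wide when it lay on one of the 20 chromosomes and measured at least 1000 bp from start to end. This rule chose 547 of the 11436 peaks in the deposited list, and the 10172 chromosomal peaks under 1000 bp, called narrow here, served for comparison. Embryos at early maturation were taken by hand out of seeds of 6 to 7 mm, a stage at which the cotyledons are filling with storage protein and oil. Tn5 transposase was applied to 50000 purified nuclei (ATAC-seq), and each of 2 biological replicates had a single-end and a paired-end run, of which the authors used the paired-end runs. All samples thus came from 1 tissue, cultivar and stage, with no treatment or mutant.

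In ATAC-seq, the transposase inserts adapters where DNA is free enough of nucleosomes to be reached, so that stretches dense in insertions are called as peaks. Accessible stretches at promoters and enhancers are usually short, because regulatory proteins displace few nucleosomes there. A wide peak is a long stretch listed as a single peak. Whether it was called whole or joined from shorter calls is not known here. Soybean chromosomes have gene-rich ends and a long, repeat-rich middle around the centromere.

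The list held 1 set of peaks for the series, with positions and without read counts, heights or replicate labels. The depth behind each peak was unknown, and no value below has an error between replicates. Chromosomes are parts of this single list, so a test over the 20 chromosomes says nothing about spread across embryos. It tests the mean of the differences within chromosomes, which a few chromosomes with large differences can carry. How often a difference recurs is shown by the number of chromosomes in each direction. Positions count from 1, and the build behind them is not given in the sources consulted. No gene and no sequence was assigned to any peak, because the gene table used here is on assembly Glycine_max_v4.0 and is not known to match.

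The wide peaks were few, but they made up a larger part of the accessible length. They were 5.10% of the 10719 chromosomal peaks (95% exact binomial interval 4.69 to 5.54) and covered 1.00 Mb, which is 17.7% of the 5.67 Mb in chromosomal peaks. Their median width was 1298 bp, with quartiles of 1128 and 1731.5 bp, while narrow peaks had a median of 435 bp and lay between 306 and 568 bp at the quartiles. Width chose the members, so these values are a description. Intervals on shares cover counting error only and treat peaks as independent, which peaks lying close together may not be.

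Most wide peaks were only moderately wide, and a small upper tail held much of the length. Between 1 and 2 kb there were 439 peaks (80.3% of the wide peaks), found on 20 of 20 chromosomes, with 56.6% of the length in wide peaks. From 2 to 5 kb there were 85 peaks on 18 chromosomes, with 25.6% of that length. Over 5 kb there were 23 peaks on 9 chromosomes. These made up 4.20% of the wide peaks and 17.8% of their length. No wide peak on chromosomes 11 and 14 reached 2 kb.

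The threshold cut through a continuous range of widths. The narrowest members were 1000 bp on chromosome 6 (46629078 to 46630077), 1001 bp on chromosome 7 (14308571 to 14309571) and 1002 bp on chromosomes 15, 17 and 18. The widest peaks left out were 999 bp on chromosome 17 (12386437 to 12387435), and 998 bp on chromosome 15 (2155011 to 2156008) and on chromosome 19 (49141655 to 49142652). The 547 peaks had 425 different widths. Of them, 217 shared an exact width with another wide peak, and the commonest width, 1013 bp, occurred 5 times.

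Wide peaks were unevenly spread over chromosomes. Chromosome 18 had 50 wide peaks, chromosome 10 had 47 and chromosome 15 had 39, while chromosome 11 had 13, chromosome 3 had 14 and chromosome 16 had 16. The median chromosome had 25. As a share of the peaks of a chromosome, wide peaks ranged from 2.72% on chromosome 11 (95% exact binomial interval 1.46 to 4.61) to 7.68% on chromosome 10 (interval 5.70 to 10.1). Chromosomes 18 and 15 were next at 7.62% and 7.51%, chromosome 9 had 6.76% and chromosome 17 had 6.40%. Chromosomes 14 and 3, with 3.01% and 3.02%, lay near chromosome 11. The intervals of chromosomes 10, 18 and 15 did not overlap those of chromosomes 11, 3 and 14.

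The contrast in accessible length was larger than the contrast in number. Wide peaks held 31.2% of the length in peaks on chromosome 10 (116 kb), 29.6% on chromosome 17 (95.9 kb) and 27.0% on chromosome 15 (82.3 kb), but 7.15% on chromosome 11 (16.6 kb) and 8.05% on chromosomes 3 and 14. The typical wide peak differed less, since the median width per chromosome lay between 1131 bp on chromosome 7 and 1533.5 bp on chromosome 13.

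Part of the uneven spread lay in runs, which are chains of wide peaks joined over gaps of at most 10 kb. On chromosome 10, 29 of 47 wide peaks lay in runs, and on chromosome 18, 23 of 50. On chromosomes 3, 11 and 14, 0 did. When each run or lone wide peak was counted as 1 locus, chromosome 10 fell from 47 peaks to 24 loci and chromosome 18 from 50 to 31, and the median chromosome had 22. Per Mb of span, the number of wide peaks differed from 0.307 on chromosome 3 to 0.911 on chromosome 10. Loci ranged from 0.307 per Mb on chromosome 3 to 0.697 on chromosome 17, with chromosome 10 at 0.465 and a median of 0.449. The high number on chromosome 10 was thus one of peaks per locus more than of loci.

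**Figure D1:**
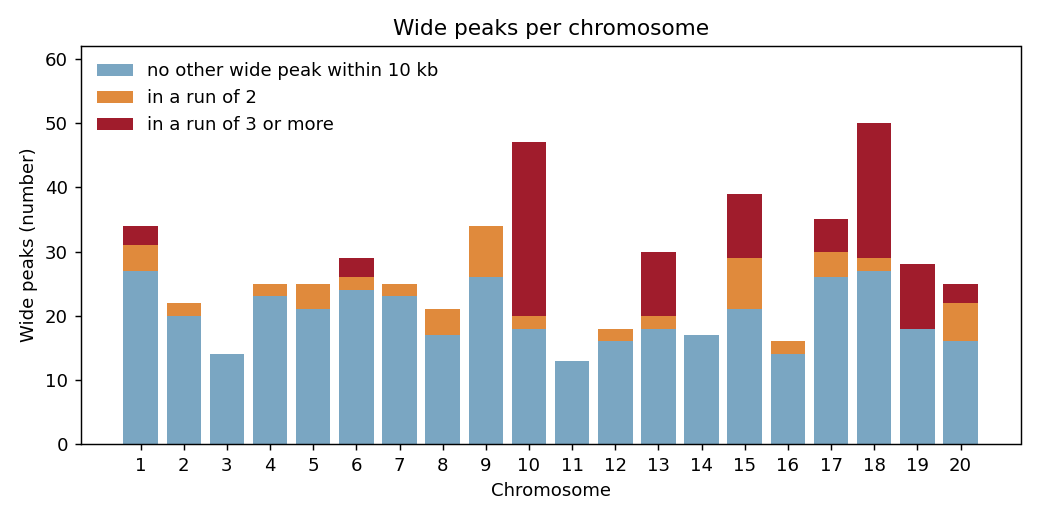
Number of wide peaks (y axis) on each of the 20 chromosomes (x axis), split by whether another wide peak lay within 10 kb. Chromosomes 10 and 18 reach 47 and 50 with 27 and 21 peaks in runs of 3 or more, and chromosomes 3, 11 and 14 show lone wide peaks only.

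Between the inner and outer parts of chromosomes, wide peaks were divided more evenly than narrow ones, although at a finer scale they were clumped. The inner part of a chromosome, the middle 50% of its span, held 247 wide peaks and the outer parts, 25% at each end, held 300. In density this was 0.522 wide peaks per Mb inside and 0.634 outside, a ratio of outer to inner of 1.21. Narrow peaks had 6.85 per Mb inside and 14.6 outside, a ratio of 2.13. The inner part thus held 45.2% of wide peaks (95% exact binomial interval 40.9 to 49.4) and 31.9% of narrow peaks (interval 31.0 to 32.8).

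Chromosome by chromosome, the inner share was 41.6% ± 16.1 for wide and 31.8% ± 6.42 for narrow peaks (SD, n = 20 chromosomes). The difference of 9.80 ± 17.5 percentage points was positive on 16 of 20 chromosomes (p = 0.021 in a two-sided permutation test that flips signs by chromosome, Benjamini-Hochberg value 0.021 over the 4 comparisons of wide and narrow peaks made here). It was carried largely by 3 chromosomes, chosen after their values were seen. On chromosome 18, 37 of 50 wide peaks were inside (74.0%, against 34.0% of narrow peaks), on chromosome 10, 33 of 47 (70.2% against 24.6%) and on chromosome 17, 23 of 35 (65.7% against 34.2%). Without these 3 the difference was 4.64 percentage points, positive on 13 of 17, and did not pass the test (permutation p = 0.16). It also did not pass when wide peaks were counted from 1500 bp, at 12.4 percentage points (permutation p = 0.11), or from 3000 bp, at 25.3 (permutation p = 0.068). The direction was opposite on chromosome 13 (23.3% of wide and 49.4% of narrow peaks inside), chromosome 11 (15.4% and 33.1%), chromosome 15 (25.6% and 34.4%) and chromosome 19 (7 of 28, and 30.3%).

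By width band, the inner share was 42.1% for peaks of 1 to 2 kb (185 of 439, interval 37.5 to 46.9), 52.9% for 2 to 5 kb (45 of 85, interval 41.8 to 63.9) and 73.9% for those over 5 kb (17 of 23, interval 51.6 to 89.8). The intervals of neighbouring bands overlapped, while that of the widest band did not overlap that of the 1 to 2 kb band. Within the 1 to 2 kb band the inner share did not rise steadily with width. It was 45.3% in the step of 100 bp from 1000 bp (48 of 106) and 35.3% from 1500 bp to under 2 kb (30 of 85). Whether these classes differ was not tested. Several of the 23 widest peaks shared a run, so they are fewer independent places than their number.

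**Figure D2:**
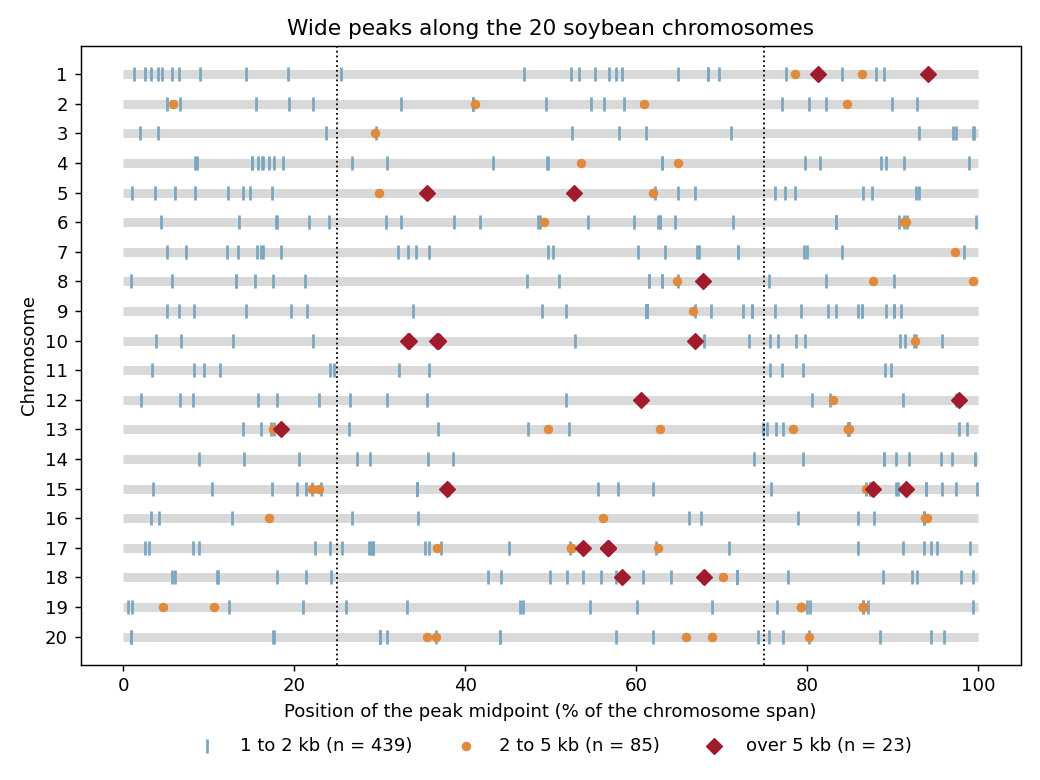
Midpoints of the 547 wide peaks as a percentage of the chromosome span (x axis) on each chromosome (y axis), marked by width band, with dotted lines at 25% and 75%. Of the 23 peaks over 5 kb, 17 lie between the dotted lines, with 6 of all 23 on chromosome 10 and 4 on chromosome 17.

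The share of peaks that were wide was highest beyond the middle of the span. In 20 equal bins pooled over chromosomes, it was 2.89% in the first bin (24 wide peaks beside 806 narrow ones) and 3.13% in the last (28 beside 867). It reached 11.6% between 60% and 65% of the span, where 38 wide peaks stood beside 291 narrow ones, and 9.80% between 65% and 70%. Single places weighed on both bins. Of the 38 wide peaks, 8 lay on chromosome 9 between 30 and 31 Mb. Of the 35 wide peaks between 65% and 70%, 18 lay on chromosome 18 between 39 and 40 Mb. Between 35% and 40% it was 10.8%, and 24 of the 45 wide peaks in that bin belonged to 4 runs on chromosome 10. The next bin had the fewest wide peaks, 10, or 3.09%. From bin to bin the number of wide peaks varied between 10 and 45 and that of narrow peaks between 223 and 867. Within 1 Mb of either end of the span lay 25 wide peaks (4.57%, interval 2.98 to 6.67) and 667 narrow peaks (6.56%, interval 6.08 to 7.06).

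**Figure D3:**
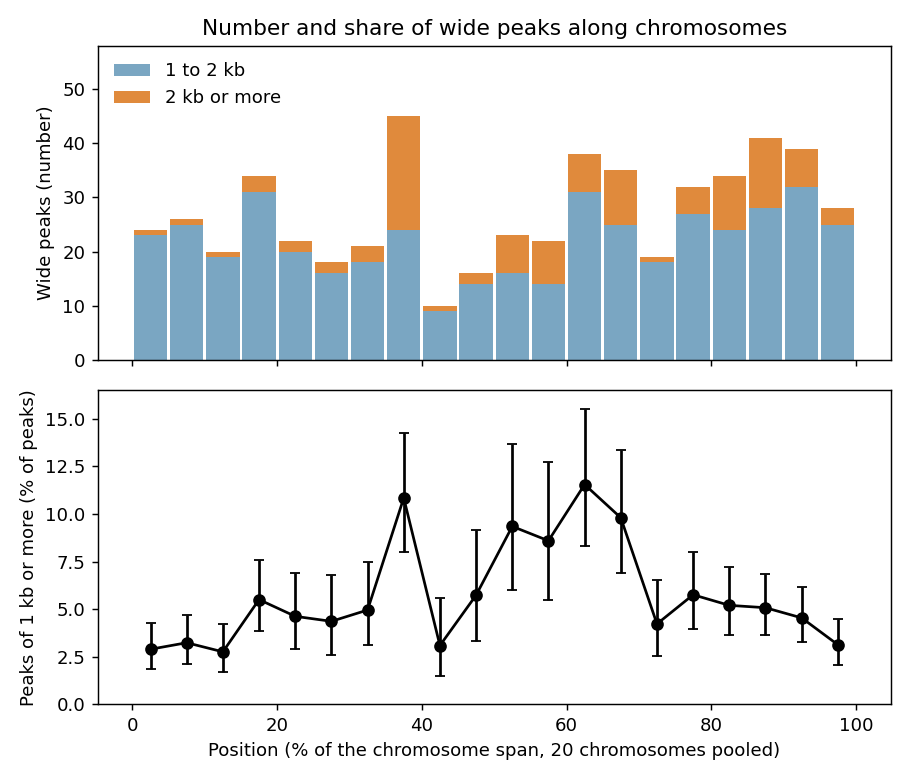
Number of wide peaks (upper panel, bars stacked by width) and their share of all peaks (lower panel, points with 95% exact binomial intervals) in 20 bins of the chromosome span, pooled over 20 chromosomes. The share is 2.89% in the first bin, 10.8% between 35% and 40%, 3.09% in the bin after that and 11.6% between 60% and 65%. The count varies between 10 and 45.

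Some long stretches held narrow peaks and no wide one. The longest ran from 18884057 to 36097707 on chromosome 14, 17.2 Mb with 82 narrow peaks, followed by 13.8 Mb on chromosome 11 with 100 narrow peaks (12377402 to 26172246). On chromosome 8, 12.4 Mb with 157 narrow peaks held none (10186772 to 22601556). Over the genome, 331 of 955 windows of 1 Mb (34.7%) had a wide peak. Of these, 225 had 1, 73 had 2 and 33 had 3 or more. The 11 windows with at least 5 held 99 wide peaks. The fullest was on chromosome 18 between 39 and 40 Mb, where 18 of 49 peaks were wide, followed by 15 of 39 on chromosome 10 between 19 and 20 Mb and 11 of 32 in the window just before it.

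Wide peaks had closer neighbours than narrow peaks. Measured from edge to edge, the median gap to the nearest other peak of any width was 4.43 kb for wide peaks (quartiles 0.864 and 22.8 kb) and 15.3 kb for narrow peaks (quartiles 3.93 and 42.3 kb). The smallest gap in the whole chromosomal list was 304 bp. Averaged over chromosomes on a log10 scale, the median gap corresponded to 4.95 kb for wide and 15.2 kb for narrow peaks, 3.07 times shorter. The log10 difference of -0.49 ± 0.41 (SD, n = 20 chromosomes) was negative on 17 of 20 chromosomes (permutation p = 1e-04, same test, Benjamini-Hochberg value 0.00013). An edge-to-edge gap leaves out the widths of the peaks themselves. Measured between midpoints, the distance was 2.22 times shorter for wide peaks. Chromosome 18 had the shortest median gap of wide peaks at 0.944 kb, against 16.99 kb for its narrow peaks. On chromosomes 3, 4 and 14 wide peaks had the longer gap, with 22.0 against 15.1 kb, 17.4 against 15.5 kb and 20.6 against 12.4 kb.

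The same contrast appeared as the share of peaks with another peak within 5 kb. It was 52.1% of wide peaks (285 of 547) and 28.7% of narrow peaks (2918 of 10172). The chromosome averages were 48.7% ± 14.2 and 28.6% ± 3.49, and the difference of 20.1 ± 13.8 percentage points was positive on 18 of 20 chromosomes (SD, n = 20; permutation p = 4e-05 in the same test, Benjamini-Hochberg value 8e-05). Between midpoints the difference was 16.8 percentage points. A neighbour within 5 kb on both sides was found for 114 wide peaks (20.8%) and 395 narrow peaks (3.88%). Among wide peaks, 143 had a neighbour within 1 kb (26.1%), against 909 narrow ones (8.94%).

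The contrast was found in both parts of the chromosomes. In the inner part the median gap was 1.61 kb for wide and 17.8 kb for narrow peaks, and in the outer parts 7.70 and 14.7 kb. A neighbour within 5 kb was present for 63.2% of inner wide peaks (156 of 247) and 43.0% of outer ones (129 of 300), beside 31.7% and 27.3% of narrow peaks. Within each part the wide and narrow peaks differed in the gap (permutation p = 0.00033 inside and 0.0023 outside, over 20 chromosomes). Whether the contrast itself was larger inside was not tested.

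Median gaps differed little between the narrow classes up to 1 kb and were shorter in each band of wide peaks, although the widest narrow peaks already had closer neighbours. The median gap was 17.8 kb for the 1313 peaks narrower than 306 bp and 15.5 kb for the 1721 peaks of exactly that commonest width. It was 15.3 kb from there up to 500 bp and 14.4 kb from 500 bp to under 1 kb. It was 5.52 kb from 1 to 2 kb, 1.27 kb from 2 to 5 kb and 1.02 kb over 5 kb. The share with a neighbour within 5 kb was 25.6%, 28.1%, 28.1% and 30.6% in the narrow classes. It was 48.3% from 1 to 2 kb (interval 43.5 to 53.1), 68.2% from 2 to 5 kb (interval 57.2 to 77.9) and 65.2% over 5 kb (interval 42.7 to 83.6). In steps of 100 bp the share began to rise below the threshold, with 30.7% from 700 bp, 32.6% from 800 bp, 40.9% from 900 bp (interval 33.0 to 49.3) and 50.9% from 1000 bp (interval 41.0 to 60.8). In the next wider classes the share did not rise further at once, with 44.1% (56 of 127) and then 47.9% (58 of 121). From 1500 bp to under 2 kb it was 51.8% (44 of 85). The median gap was 10.2 kb from 900 bp to under 1 kb and 4.47 kb in the step of 100 bp from 1000 bp. The share thus showed no sharp break at 1000 bp, since the intervals on either side overlapped. The median gap was shorter just above the threshold than just below it, and this step was not tested.

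**Figure D4:**
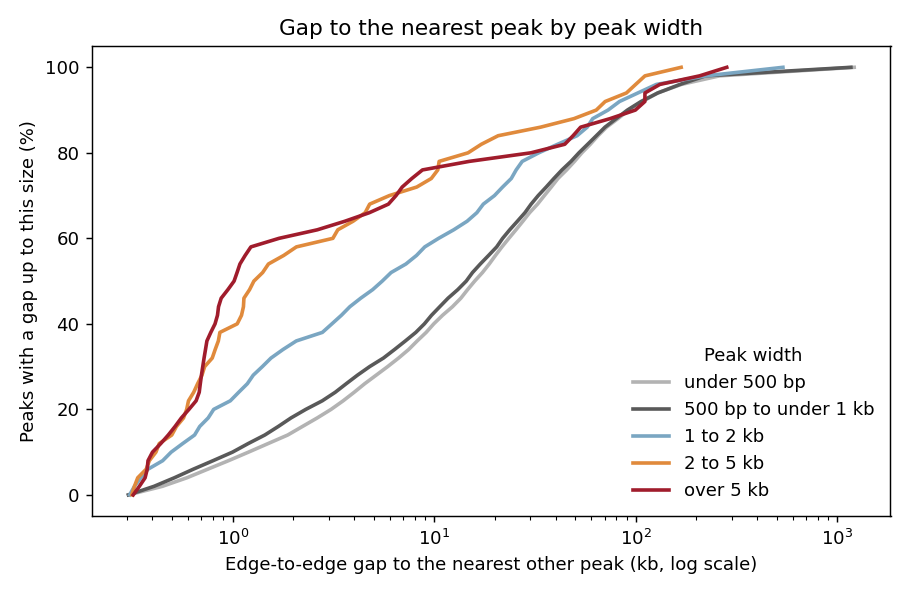
Cumulative share of peaks (y axis) against the edge-to-edge gap to the nearest other peak in kb on a log scale (x axis), by peak width. The curves of both narrow classes nearly coincide, with medians of 15.9 kb under 500 bp and 14.4 kb from 500 bp to under 1 kb, and those for 1 to 2 kb, 2 to 5 kb and over 5 kb lie to the left with medians of 5.52, 1.27 and 1.02 kb.

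The neighbours of wide peaks were themselves often wide. The nearest peak was wide for 111 of 547 wide peaks (20.3%) and for 462 of 10172 narrow peaks (4.54%), beside the 5.10% of all chromosomal peaks that are wide. Among peaks whose nearest neighbour lay within 5 kb, these shares were 31.6% (90 of 285) and 7.03% (205 of 2918). By band, the nearest peak was wide for 14.4% of peaks of 1 to 2 kb, 40.0% of those of 2 to 5 kb and 60.9% of those over 5 kb (14 of 23). The median width of the nearest peak was 503, 705 and 1430 bp in the same order, and 447 bp for narrow peaks. Narrow peaks within 5 kb of a wide peak, of which there were 313, had a median width of 488 bp, against 433 bp for the other 9859 narrow peaks.

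Measured to the nearest other wide peak, the median gap of a wide peak was 319 kb (quartiles 6.53 and 1039 kb), and that of a narrow peak to its nearest wide peak was 664 kb (quartiles 231 and 1419 kb). Another wide peak within 10 kb was found for 148 wide peaks (27.1%), and a wide peak within 10 kb for 442 narrow peaks (4.35%). The chromosome averages were 21.8% ± 17.4 and 4.26% ± 2.26, a difference of 17.6 ± 15.6 percentage points that was positive on 17 of 20 chromosomes (SD, n = 20; permutation p = 3e-05 in the same test, Benjamini-Hochberg value 8e-05). The exceptions were chromosomes 3, 11 and 14, where 0 wide peaks had another within 10 kb. With wide peaks counted from 3000 bp, the difference of 21.6 percentage points on 14 chromosomes did not pass (permutation p = 0.062). The recurrence across chromosomes depended on the setting: from 2000 bp the difference of 20.1 percentage points was positive on 7 of 18 chromosomes and negative on 9 (permutation p = 0.016), and from 3000 bp it was positive on 5 and negative on 6. Within the inner part alone, and likewise within the outer parts alone, it was positive on 11 chromosomes and negative on 9. By band the share was 19.8% (87 of 439) from 1 to 2 kb, 51.8% (44 of 85) from 2 to 5 kb and 73.9% (17 of 23) over 5 kb.

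The wide peaks thus fell into 399 that stood alone and 148 that formed 45 runs on 17 chromosomes. There were 28 runs of 2 wide peaks, 7 of 3, and 10 of 4 or more. The runs held 27.1% of wide peaks and 39.7% of their length. Of the 45 runs, 26 had their centre in the inner part. In 33 runs no narrow peak lay between the wide ones, and the others held 53 narrow peaks. Wide peaks in runs of 3 or more had a median width of 1663 bp, and 44 of these 92 reached 2 kb (47.8%). Lone wide peaks had a median of 1252 bp, and 47 of 399 reached 2 kb (11.8%).

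Lone wide peaks are by definition those with no other wide peak within 10 kb, so their spacing cannot be set against that of wide peaks in runs. The condition was not set for narrow peaks, so the comparison with narrow peaks is an unequal one. The median gap of lone wide peaks to any peak was 10.6 kb, against 15.3 kb for narrow peaks, and 36.8% had a neighbour within 5 kb. Averaged over chromosomes, the gap was 1.46 times shorter than that of narrow peaks (permutation p = 0.0038) and the share within 5 kb was 8.06 percentage points higher (permutation p = 0.00094). Both comparisons were chosen after seeing the data. The inner share of lone wide peaks was 39.3% (157 of 399), beside 53.6% in runs of 2 and 65.2% in runs of 3 or more (60 of 92).

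The runs differed in how fully wide peaks filled them. The run with the greatest length in wide peaks, 43.9 kb, was on chromosome 17, from 23567370 to 23622950. Its 5 wide peaks measured 10127, 8526, 4815, 15877 and 4571 bp in order, with no narrow peak between them. The first 4 were separated by 835 to 1096 bp and the last by 8718 bp. The widest peak of the list, 15877 bp, lay in it from 23593785 to 23609661. The peak of 10127 bp opened the run and ended at 23577496, and that of 8526 bp followed at 23578593 and ended at 23587118.

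On chromosome 10, 3 runs of at least 4 wide peaks followed each other within 162 kb. The first, from 18947598 to 19034537, had 12 wide peaks of 1018 to 7669 bp with 15 narrow peaks between them, and wide peaks covered 44.3% of its 86.9 kb. Its peaks over 5 kb measured 5047 bp (18947598 to 18952644), 5270 bp (18975467 to 18980736) and 7669 bp (18993291 to 19000959). The second, from 19047175 to 19068767, had 5 wide peaks, of which 3 measured 1015, 1025 and 1021 bp and the others 1992 and 3697 bp. The third, from 19096400 to 19109764, had 4 wide peaks of 4843, 2018, 1439 and 1651 bp that covered 74.5% of 13.4 kb. A run of 3 lay just before them, from 18892897 to 18904782, and another run of 3 lay from 17196358 to 17226479, with peaks of 8989 bp (17196358 to 17205346) and 5019 bp (17221461 to 17226479) at its ends.

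Chromosome 18 had a run of 12 wide peaks from 39371731 to 39417403. Peaks of 6058 bp (39384402 to 39390459) and 4024 bp were the widest in it, and the other 10 measured 1064 to 1634 bp, with 8 narrow peaks between. Those of 1288, 1298, 1294 and 1292 bp were within 10 bp of one another in width. A second run on this chromosome, from 41621154 to 41633469, had 6 wide peaks of 1024 to 1633 bp and 1 narrow peak, with a median gap of 410.5 bp.

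The run on chromosome 13, from 38798431 to 38856189, had 10 wide peaks of 1098 to 4518 bp and 11 narrow ones, and wide peaks covered 38.3% of 57.8 kb. Chromosome 19 had 7 wide peaks of 1257 to 4052 bp from 43724090 to 43746708, with no narrow peak between and gaps of 389 to 1329 bp, so that 81.7% of 22.6 kb was covered. A run of 3 on the same chromosome, from 40071652 to 40083383, was covered to 94.1%, its peaks being separated by 316 and 372 bp. On chromosome 15, 6 wide peaks of 1166 to 4362 bp lay from 45169914 to 45199001 and 4 of 1090 to 1322 bp from 17749601 to 17769153. The latter run was the least filled of those with at least 4 wide peaks, at 24.7%, and had 6 narrow peaks.

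**Figure D5:**
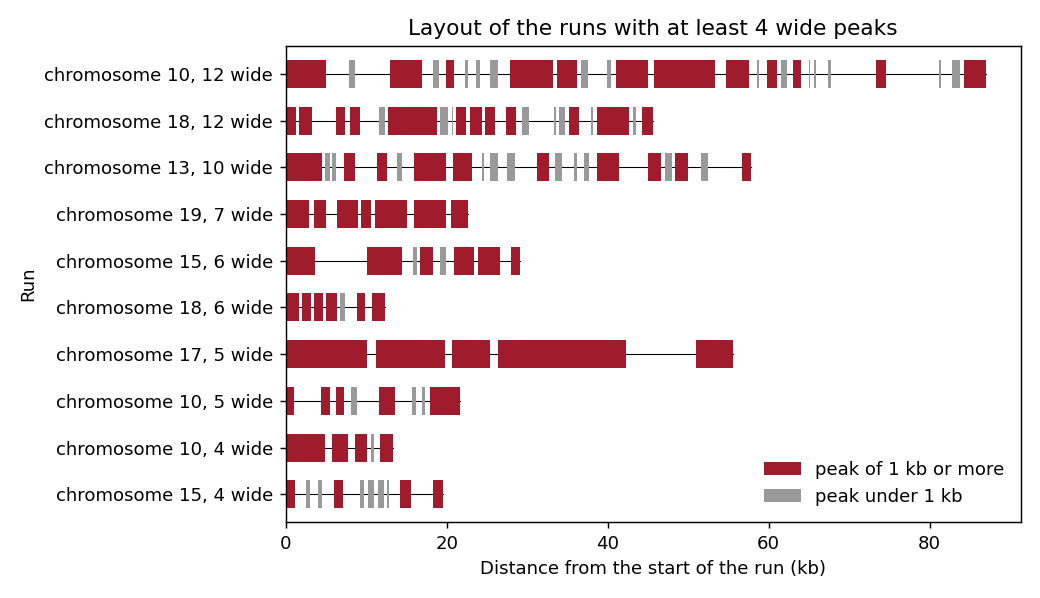
Layout of the 10 runs with at least 4 wide peaks, drawn to scale in kb from the start of each run (x axis), with wide peaks in red and narrow peaks in grey. The chromosome 17 run consists of 5 wide peaks up to 15877 bp with nothing between, while the longest chromosome 10 run mixes 12 wide and 15 narrow peaks over 86.9 kb.

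The 23 peaks over 5 kb were of 3 kinds by their surroundings. In 17 of them another wide peak lay within 10 kb, as in the runs above. A pair on chromosome 12, from 39183682 to 39197736, consisted of peaks of 11810 and 1863 bp separated by 382 bp, and one on chromosome 13, from 8430427 to 8440798, of peaks of 7917 and 1983 bp separated by 472 bp. On chromosome 15 a peak of 7661 bp (19585727 to 19593387) stood 844 bp from one of 3382 bp. On chromosome 1 a peak of 7683 bp (53482253 to 53489935) had another wide peak 321 bp away, and one of 5063 bp (46184770 to 46189832) belonged to a run of 3. Chromosome 5 had peaks of 8246 bp (14959296 to 14967541) and 6590 bp (22224305 to 22230894), with another wide peak at 6.03 and 0.677 kb. A peak of 6751 bp on chromosome 18 (33816443 to 33823193) closed a run of 3.

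The second kind had a narrow peak or only distant peaks nearby. The peak of 6715 bp on chromosome 15 (45401888 to 45408602) had a narrow peak 0.720 kb away and the nearest wide one at 65.1 kb. Those of 5845 bp on chromosome 15 (47402867 to 47408711) and 5631 bp on chromosome 8 (32396102 to 32401732) had their nearest peak at 44.0 and 54.1 kb. The third kind was isolated by over 100 kb on both sides. The peak of 12304 bp on chromosome 12, from 24272360 to 24284663, was the second widest of the list, and had no peak for 930 kb before it and 111 kb after it and no wide peak within 3.51 Mb. The peak of 7930 bp on chromosome 17 (22351729 to 22359658) had gaps of 111 and 291 kb, and that of 5238 bp on chromosome 10 (34522321 to 34527558) gaps of 283 and 513 kb.

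In all, 36 wide peaks (6.58%) were more than 100 kb from any other peak, against 916 narrow peaks (9.01%). These 36 lay on 16 chromosomes, 21 of them in the inner part, with a median width of 1366.5 bp, and 7 reached 2 kb. The most isolated was a peak of 1308 bp on chromosome 19 (13164606 to 13165913), with 641 kb free before it and 537 kb after it. It was followed by 1731 bp on chromosome 13 (7358033 to 7359763), with 652 and 520 kb, and by 1898 bp on chromosome 6 (33154698 to 33156595), with 423 and 715 kb. The wide peak farthest from any other wide peak, at 7.29 Mb, was one of 1222 bp on chromosome 10 (27235496 to 27236717), which had a narrow peak 6.39 kb away.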

How the data were processed

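The authors deposited 1 peak list without header for the series, giving for each peak a sequence name, a start counted from 0 and an end. Per the submitters' processing notes, Bowtie2 2.3.4.1, SAMtools, HOMER and bedtools were used. Their roles, the genome build, the peak-calling settings and the way the replicates were joined are not given in the sources consulted. The label of the list holds the word INTERSECT, without saying what was intersected or how. If nearby peaks were merged or replicate peaks intersected, widths and gaps would depend on it. This includes the smallest gap and the narrowest chromosomal peak, which measured 2 bp. The deposited list holds no count, score or signal, so depth and precision were unknown.

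Width was end minus start. The span of a chromosome ended at its last peak, a lower bound of its length. Peaks were placed by their midpoint, and gaps were measured edge to edge. Wide and narrow peaks were compared by their difference within each chromosome, and the mean difference was tested by flipping its sign at random by chromosome (a two-sided permutation test, 100000 flips, smallest p 1e-05), adjusted over 4 tests by Benjamini-Hochberg. The procedures were run on simulated lists of evenly placed peaks, some with a planted inner shift of wide peaks and planted narrow neighbours. The lists had no planted runs of wide peaks, so the tests were not checked under such clustering. Alternatives covered the width threshold, the outer parts, distances, runs and chromosomes left out. Python 3.11.15, numpy 2.4.6, pandas 2.3.3, scipy 1.17.1 and matplotlib 3.10.9 were used. The rule for named regions asked for all peaks over 5 kb, the 3 peaks on either side of the threshold, runs of at least 4 wide peaks or of the greatest length, the chromosomes highest and lowest in wide peaks and the most isolated wide peaks. Other regions and chromosomes that are named were chosen after their values were seen. The members, lists and comparisons were chosen with earlier results of these data known.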

Additional observations from a re-analysis of the deposited data

How the results depend on the processing

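No paired analysis was possible because peaks carry no replicate number in the list, and for the same reason no replicate could be left out. Leaving out each chromosome in turn changed the direction or call of none of the 4 comparisons. Of 55 other alternatives for 6 results, 44 changed neither direction nor call or, for counts, stayed within 1.5 times. The difference in inner share was 12.4 percentage points from 1500 bp (permutation p = 0.11) and 25.3 from 3000 bp (permutation p = 0.068, on the 14 chromosomes with such peaks), and 4.64 without chromosomes 10, 17 and 18. None of these passed the test. From 2000 bp it did, with 23.3 (permutation p = 0.031). The difference in the share with a wide peak within 10 kb was 21.6 percentage points from 3000 bp and did not pass (permutation p = 0.062). The log10 gap difference ranged from -0.65 to -0.16 and the share within 5 kb from 8.06 to 27.0 percentage points. The smallest of both came from lone wide peaks, which are selected for having no wide neighbour. Fewer peaks and chromosomes enter at higher thresholds. The 17 runs of 3 or more became 11 from 1500 bp and 7 from 2000 bp. The 547 wide peaks became 981 from 800 bp, 193 from 1500 bp, 108 from 2000 bp and 56 from 3000 bp, and 866 when peaks with gaps of at most 1000 bp were merged. The settings that use lone wide peaks or leave out 3 chromosomes were chosen after seeing the data. Depth was unknown, and whether reads could be placed uniquely at wide peaks was not tested.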

Other observations

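Peaks of at least 1000 bp were also found on unplaced scaffolds, which the comparisons above leave out. There they were 91 of 717 peaks, or 12.7% (95% exact binomial interval 10.3 to 15.4), against 5.10% on chromosomes (interval 4.69 to 5.54). They lay on 73 of the 296 scaffolds with peaks and had a median width of 1289 bp, close to the 1298 bp of chromosomal wide peaks. Only 11 of them reached 2 kb and 0 exceeded 5 kb. The widest was 3144 bp on scaffold 1326, from 235 to 3378. No scaffold had more than 3, the number found on scaffold 86 among 30 peaks and on scaffold 245 among 12. Scaffold lengths are not in the list, so how far short scaffolds limit the width of a peak was not tested.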
